A study of Ovis aries with 15 samples.

Results

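The tubular injury and repair markers described here are genes whose transcripts or proteins are used to recognise damaged and regenerating kidney epithelium. Of 8 genes named by symbol (HAVCR1, LCN2, SPP1, VCAM1, VIM, KRT19, SOX9 and TIMP1), 6 had a row under that symbol among the 25592 genes of the deposited expression table, and HAVCR1 and VCAM1 had none. Their levels were read in all 15 kidney RNA-seq libraries, which form 3 groups of 5 male Dorper × Small-tailed Han sheep aged 4 months. The CON group received the diet without toxin or additive. The AFB1 group received aflatoxin B1, a mould toxin of feed, at 500 µg per kg of dry matter. Sheep of the AFB1_CUR group were fed this dose together with the plant polyphenol curcumin (CUR) at 800 mg per kg of dry matter. The study fed 6 sheep per group, and kidneys were taken after 21 days. The RNA came from pieces of whole kidney, so fewer cells of a type and less RNA per cell cannot be told apart in any value below.

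A nephron segment that loses cells is repaired by surviving tubule cells, which lose mature transport functions, spread, divide and then mature again. Such cells are known to switch on the transcription factor SOX9, the intermediate filament protein vimentin (VIM), keratin 19 (KRT19) and the adhesion molecule VCAM1, and to secrete or shed kidney injury molecule 1 (HAVCR1), lipocalin 2 (LCN2), osteopontin (SPP1) and the metalloproteinase inhibitor TIMP1. Several of these genes have other sources in kidney: VIM and TIMP1 are strongly transcribed in fibroblasts, endothelium and leukocytes, LCN2 in neutrophils, and SPP1 and KRT19 in some uninjured tubule and duct cells.

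The library labelled AFB1 replicate 1 did not have the profile of kidney. Its mean log2(FPKM + 1) over 20 hepatocyte markers was 10.42, against 1.23 to 2.64 in the other 14 libraries, and over 10 markers of the loop of Henle and collecting duct it was 0.71, against 6.66 to 7.56. FPKM is a count scaled to transcript length and to library size. This library is therefore shown apart, and the groups compared are 5 CON, 4 AFB1 and 5 AFB1_CUR libraries. In those 14 libraries the proximal tubule and collecting duct markers were present, with SLC34A1, the proximal tubule phosphate transporter, at an FPKM of 53.00 to 346.0 and AQP2, the collecting duct water channel, at 205.0 to 582.4. Total counts per library ranged from 50255295 to 68747047. A gene was called where the quasi-likelihood test of edgeR, run on the counts, gave an unadjusted p under 0.05 and the fold change was above 1.5. By this rule 1.75% of the 13193 tested genes were called between AFB1 and CON, 0.94% between AFB1_CUR and AFB1, and 1.64% between AFB1_CUR and CON. With Benjamini-Hochberg adjustment edgeR called 0 genes in each comparison, where 663, 303 and 725 had an unadjusted p under 0.05, and DESeq2 called 17, 3 and 1.

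None of the 6 markers was called in any of the 3 comparisons. SPP1, VIM, KRT19 and TIMP1 reached an FPKM of 1 or more in 5 or more libraries and were tested among the 13193 genes. LCN2 and SOX9 were below that limit and were tested in a fit of all 25592 genes, in which 3.39% of genes were called between AFB1 and CON, 2.76% between AFB1_CUR and AFB1, and 3.63% between AFB1_CUR and CON. The markers differed widely in level and in how much they varied between sheep. By median FPKM over the 14 libraries SPP1 ranked 129 among all genes of the table and VIM ranked 200, while TIMP1 ranked 2533, KRT19 2548 and SOX9 14215. LCN2 is left out of this order because of the gene length behind its FPKM, given with its values. The spread within groups, as the SD of log2(FPKM + 1) about the group means, was 0.62 for SPP1, 0.55 for VIM, 0.50 for KRT19 and 0.49 for TIMP1, against a median of 0.24 over all tested genes. Of the tested genes, 93.7% had a smaller spread than SPP1, and 91.2%, 88.8% and 88.4% a smaller spread than VIM, KRT19 and TIMP1. The 1 added to FPKM shrinks this spread for genes of low FPKM, so these shares also depend on level.

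**Figure D1:**
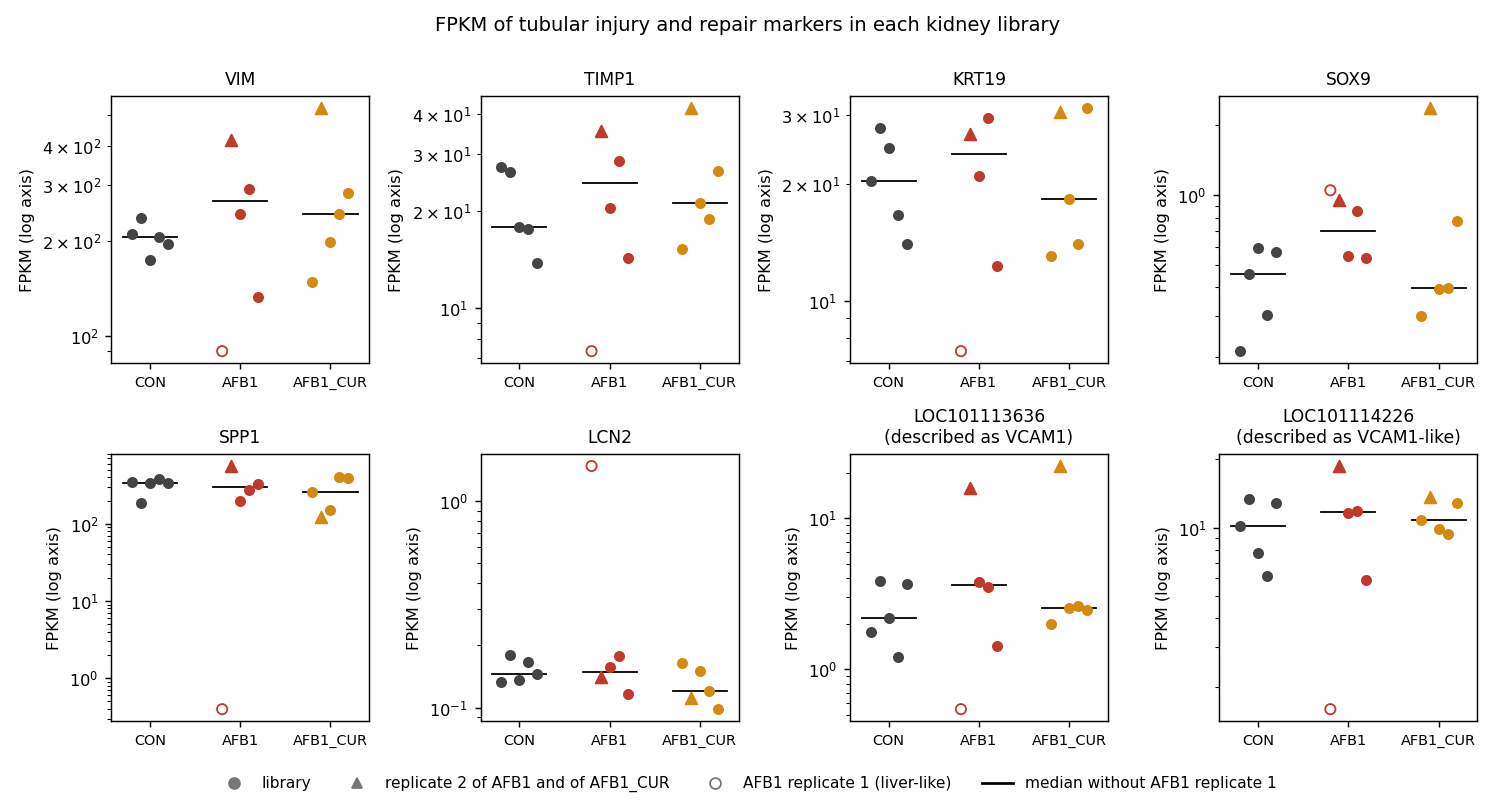
FPKM on a log axis of the 6 markers and of 2 loci described as VCAM1 in each library of the CON, AFB1 and AFB1_CUR groups, with the median of each group (AFB1 replicate 1, open circle, left out) as a line. The groups overlap for every gene, and replicate 2 of AFB1 and of AFB1_CUR (triangles) lie at the top for VIM, which had an FPKM of 417.1 and 526.4 there, and for TIMP1 (35.4 and 41.8), whereas SPP1 in AFB1_CUR replicate 2 (123.7) is the lowest of the 14.

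Among the structural proteins of dedifferentiated cells, VIM, at chromosome 13, 31056126 to 31064138, plus strand, had an FPKM of 210.8, 236.9, 174.6, 206.2 and 196.4 in CON replicates 1 to 5. In AFB1 replicates 2 to 5 it was 417.1, 243.3, 292.5 and 133.3. In AFB1_CUR replicates 1 to 5 it was 149.0, 526.4, 199.3, 243.1 and 283.2. The CON libraries lay close together, while both AFB1-fed groups held libraries above the highest and below the lowest CON value. The mean ± SD was 205.0 ± 22.6 (n = 5) in CON, 271.6 ± 118 (n = 4) in AFB1 and 280.2 ± 146 (n = 5) in AFB1_CUR. On the log2 scale AFB1 differed from CON by 0.38 (SE 0.30, 95% interval -0.26 to 1.01, adjusted p = 0.965 by edgeR with Benjamini-Hochberg adjustment). AFB1_CUR differed from CON by 0.34 (SE 0.28, -0.26 to 0.94) and from AFB1 by -0.03 (SE 0.30, -0.67 to 0.60). These intervals leave room for changes above 1.5-fold in either comparison with CON. Without AFB1 replicate 2 the difference between AFB1 and CON was 0.14, and without AFB1_CUR replicate 2 that between AFB1_CUR and CON was 0.056.

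KRT19, a keratin of simple duct epithelium located on chromosome 11 at 41472689 to 41476482, minus strand, had an FPKM of 20.3, 27.8, 24.7, 16.6 and 13.95 in CON replicates 1 to 5. The values were 26.8, 20.9, 29.5 and 12.3 in AFB1 replicates 2 to 5, and 13.0, 30.6, 18.2, 13.97 and 31.3 in AFB1_CUR replicates 1 to 5. Each group thus held both high and low libraries, and the ranges nearly coincided. The means were 20.7 ± 5.66 (SD, n = 5), 22.4 ± 7.64 (n = 4) and 21.4 ± 8.92 (n = 5). The log2 difference was 0.10 (SE 0.28, 95% interval -0.50 to 0.71) for AFB1 against CON, -0.14 (SE 0.28, -0.75 to 0.46) for AFB1_CUR against AFB1 and -0.04 (SE 0.27, -0.61 to 0.53) for AFB1_CUR against CON.

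SOX9, the transcription factor of progenitor-like and regenerating tubule cells, lies on chromosome 11 at 58097237 to 58102816, minus strand, and was a low transcript with counts of 65 to 587 in the 14 libraries. Its FPKM was 0.212, 0.456, 0.590, 0.305 and 0.567 in CON replicates 1 to 5. In AFB1 replicates 2 to 5 it was 0.950, 0.545, 0.858 and 0.537. In AFB1_CUR replicates 1 to 5 it was 0.301, 2.38, 0.395, 0.397 and 0.771. AFB1 replicates 2 and 4 lay above all CON libraries and replicates 3 and 5 lay within the CON range, while AFB1_CUR held 1 far higher library, replicate 2, and 3 libraries within the CON range. The mean ± SD was 0.426 ± 0.164 (n = 5), 0.723 ± 0.213 (n = 4) and 0.848 ± 0.874 (n = 5). In the fit of all genes the log2 difference was 0.75 (SE 0.50, 95% interval -0.32 to 1.81) for AFB1 against CON, with an adjusted p of 0.864 by edgeR with Benjamini-Hochberg adjustment. It was 0.82 (SE 0.47, -0.19 to 1.83) for AFB1_CUR against CON and 0.07 (SE 0.50, -0.99 to 1.14) for AFB1_CUR against AFB1. The two-sided exact permutation test on log2(CPM + 0.1), with CPM from the TMM-scaled counts, gave p = 0.0635 for AFB1 against CON, where the smallest p that 4 against 5 libraries allow is 0.0159. SOX9 met the call rule between AFB1 and CON when AFB1_CUR replicate 2 was left out of the fit (log2 difference 0.76) and between AFB1_CUR and CON when AFB1_CUR replicate 1 was left out (1.02). Without AFB1_CUR replicate 2 the latter difference was 0.10.

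Of the secreted proteins, SPP1, a phosphoprotein that binds integrins and CD44 and limits crystal growth in urine, had the highest FPKM of the 6 markers in 9 of the 14 libraries and VIM in the other 5. It lies on chromosome 6 at 37363570 to 37376486, minus strand. The FPKM was 344.0, 187.5, 333.3, 382.2 and 336.8 in CON replicates 1 to 5 and 559.2, 196.3, 277.1 and 325.8 in AFB1 replicates 2 to 5. In AFB1_CUR replicates 1 to 5 it was 254.5, 123.7, 152.0, 408.3 and 386.7. AFB1 replicate 2 and AFB1_CUR replicates 4 and 5 were above every CON library. AFB1_CUR replicates 2 and 3 were below every CON library, and the other libraries overlapped. The means were 316.8 ± 74.9 (SD, n = 5), 339.6 ± 156 (n = 4) and 265.0 ± 131 (n = 5). The log2 difference was 0.07 (SE 0.39, 95% interval -0.76 to 0.91) for AFB1 against CON. For AFB1_CUR it was -0.39 (SE 0.39, -1.22 to 0.44) against AFB1 and -0.32 (SE 0.37, -1.11 to 0.47) against CON, and the adjusted p by edgeR with Benjamini-Hochberg adjustment was 0.878 or above in all 3 comparisons.

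TIMP1, an inhibitor of matrix metalloproteinases, lies on chromosome X at 57247877 to 57262641, minus strand. Its FPKM was 27.3, 26.3, 17.8, 17.5 and 13.8 in CON replicates 1 to 5, and 35.4, 20.4, 28.5 and 14.2 in AFB1 replicates 2 to 5. AFB1_CUR replicates 1 to 5 had 15.2, 41.8, 21.1, 18.9 and 26.5. Only AFB1 replicates 2 and 4 and AFB1_CUR replicate 2 were above the highest CON library, and the lowest of the 14 libraries was CON replicate 5. The means were 20.6 ± 5.95 (SD, n = 5), 24.6 ± 9.24 (n = 4) and 24.7 ± 10.4 (n = 5). The log2 difference was 0.24 (SE 0.28, 95% interval -0.36 to 0.84) for AFB1 against CON, -0.07 (SE 0.28, -0.67 to 0.52) for AFB1_CUR against AFB1 and 0.17 (SE 0.26, -0.40 to 0.73) for AFB1_CUR against CON. The first of these was 0.064 without AFB1 replicate 2, 0.13 without CON replicate 5, 0.14 without AFB1 replicate 4, 0.38 without CON replicate 1 and 0.40 without AFB1 replicate 5, and it did not meet the call rule in any of these fits.

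LCN2, a siderophore-binding protein released by neutrophils and by injured distal tubule, lies on chromosome 3 at 8108566 to 8128289, minus strand. In the 14 libraries its counts were 112 to 202 and its FPKM was 0.133, 0.180, 0.135, 0.166 and 0.145 in CON replicates 1 to 5. It was 0.140, 0.158, 0.177 and 0.117 in AFB1 replicates 2 to 5, and 0.164, 0.111, 0.150, 0.120 and 0.0982 in AFB1_CUR replicates 1 to 5. By FPKM no library of either AFB1-fed group exceeded the highest CON library. By CPM from the TMM-scaled counts, AFB1 replicate 4 (3.27) was above the highest CON library, replicate 4 (3.12). The log2 difference in the fit of all genes was -0.04 (SE 0.24, 95% interval -0.55 to 0.48) for AFB1 against CON. It was -0.27 (SE 0.24, -0.78 to 0.25) for AFB1_CUR against AFB1 and -0.31 (SE 0.23, -0.79 to 0.18) for AFB1_CUR against CON, so a rise of these counts above 1.5-fold lay outside all 3 intervals. The FPKM of LCN2 corresponded to a gene length of 17.8 to 18.1 kb, close to its whole locus of 19724 bases, whereas the lengths behind the other 5 markers were 0.850 to 4.45 kb. Its FPKM therefore cannot be ranked against that of the other markers, although libraries can be compared within the gene. If the reads were counted over that length, they may include reads from introns, and the share of the mature transcript is not known. The 3 intervals thus do not exclude a rise of the mature transcript alone.

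The table held no row named VCAM1 or HAVCR1, and loci described as their products were read instead, outside the list of 6. The pair of loci described as vascular cell adhesion protein 1, the endothelial and tubular ligand of leukocyte integrins, lie 18322 bases apart on the plus strand of chromosome 1. They are LOC101113636 at 78026684 to 78048307 and LOC101114226, described as VCAM1-like, at 78066630 to 78089497. Their likeness in sequence was not examined. Reads that match both loci could have been split between them, so each level is uncertain. LOC101113636 had an FPKM of 1.77, 3.82, 2.17, 1.21 and 3.66 in CON replicates 1 to 5 and of 15.9, 3.76, 3.51 and 1.43 in AFB1 replicates 2 to 5. AFB1_CUR replicates 1 to 5 had 1.99, 22.1, 2.53, 2.64 and 2.46. Replicate 2 of AFB1 and of AFB1_CUR stood far above the rest, and the other 7 libraries of these groups lay within the CON range. The mean ± SD was 2.53 ± 1.16 (n = 5) in CON, 6.15 ± 6.59 (n = 4) in AFB1 and 6.35 ± 8.82 (n = 5) in AFB1_CUR. The log2 difference from CON was 1.23 (SE 0.75, 95% interval -0.38 to 2.83) in AFB1 and 1.17 (SE 0.71, -0.36 to 2.70) in AFB1_CUR, and without both of those libraries these differences were 0.23 and -0.08. Without AFB1_CUR replicate 2 alone, the locus met the call rule for AFB1 against CON (1.23) and for AFB1_CUR against AFB1 (-1.31).

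LOC101114226 had an FPKM of 6.14 to 13.4 in CON, 5.89 to 18.6 in AFB1 replicates 2 to 5 and 9.35 to 13.7 in AFB1_CUR. The groups overlapped, and the log2 difference was 0.22 (SE 0.25, 95% interval -0.31 to 0.76) for AFB1 against CON and 0.10 (SE 0.24, -0.41 to 0.60) for AFB1_CUR against CON. For HAVCR1, the proximal tubule receptor for apoptotic cells that is the best known urinary marker of tubular injury, 5 loci on chromosome 5 were described as its product or as similar to it. Their counts in the 14 libraries were between 0 and 21, which is too few to compare groups. LOC101113331, which the file describes as the sheep protein itself rather than as similar to it, lies at 66262873 to 66282149 on the minus strand and had counts of 0 to 9 in these libraries. A count of that size does not show that the transcript was absent.

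**Figure D2:**
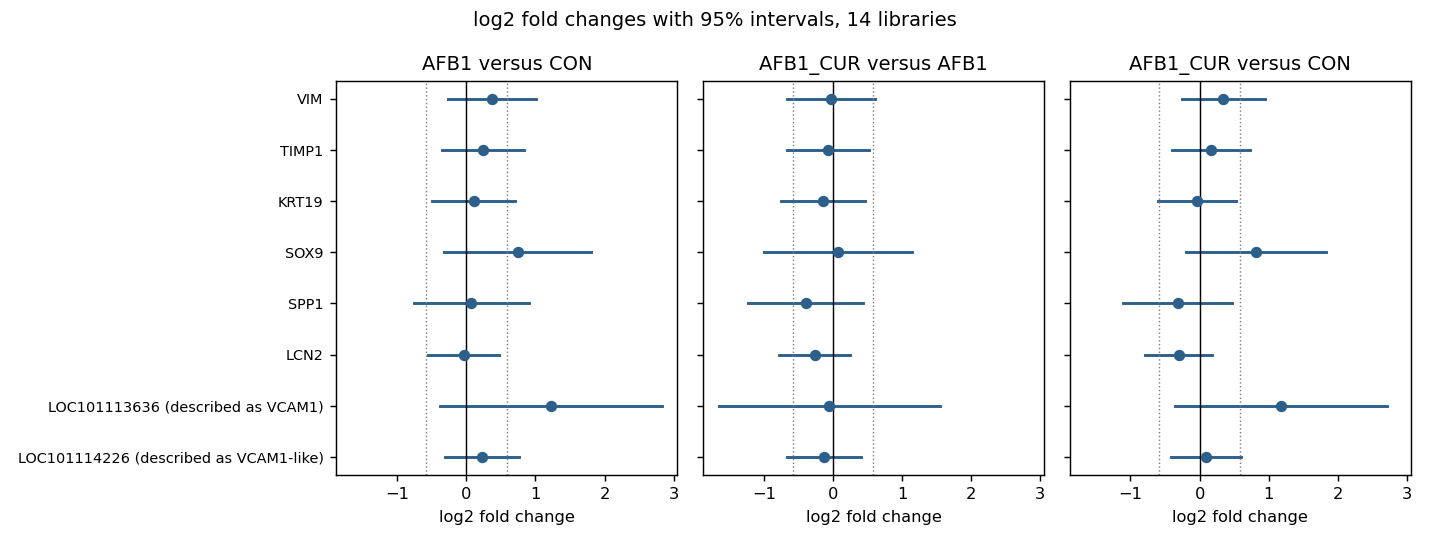
Log2 fold changes (horizontal axis) with 95% intervals of the 6 markers and of 2 loci described as VCAM1 in the 3 comparisons, from edgeR on 14 libraries, with LCN2 and SOX9 from the fit of all genes and dotted lines at a fold of 1.5. Every interval crosses 0, and the widest are those of LOC101113636 (-0.38 to 2.83 for AFB1 against CON).

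The library labelled AFB1 replicate 1 had SPP1 at an FPKM of 0.397, VIM at 89.8, KRT19 at 7.41 and TIMP1 at 7.34, each the lowest of the 15 libraries. LCN2 was at 1.48, far above its range elsewhere, and SOX9 was at 1.05, within its range. LOC101111190, described as HAVCR1-like and annotated as a long noncoding RNA, had a count of 37406 there against 0 to 21 in the other libraries. With this library in the AFB1 group the log2 difference of LCN2 from CON was 1.95 and met the call rule, that of SPP1 was -0.25, and that of KRT19 was -0.03.

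**Figure D3:**
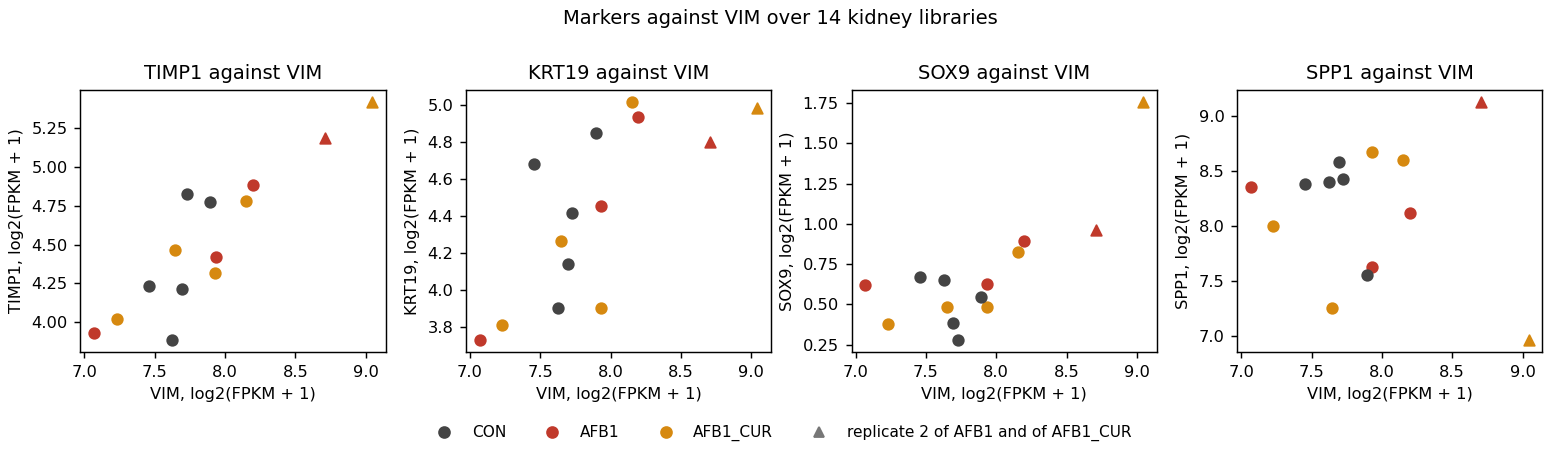
TIMP1, KRT19, SOX9 and SPP1 against VIM, each as log2(FPKM + 1), over 14 libraries coloured by group, with replicate 2 of AFB1 and of AFB1_CUR as triangles. TIMP1 and KRT19 increase with VIM (Pearson r 0.894 and 0.729), the relation of SOX9 to VIM leans on the triangles, and SPP1 has an r of -0.147.

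VIM, TIMP1 and KRT19 varied together between libraries. SOX9 was related to them by Pearson r but not by rank correlation after adjustment, and no relation of SPP1 or LCN2 with these 4 genes passed the test. Correlations of log2(FPKM + 1) were computed for the 15 pairs of markers over the 14 libraries, which share no animals but differ in depth and group. VIM and TIMP1 were the most closely related pair (Pearson r = 0.894 with permutation p = 2e-05 and adjusted p = 0.0003, Spearman rho = 0.859 with permutation p = 0.00019), followed by KRT19 and TIMP1 (Pearson r = 0.838 with permutation p = 0.00034 and adjusted p = 0.00255, Spearman rho = 0.829 with permutation p = 0.00042). VIM and KRT19 had a Pearson r of 0.729 (permutation p = 0.00204, adjusted p = 0.00765) and a Spearman rho of 0.789 (permutation p = 0.00135). With the 2 libraries farthest from the median of the first gene left out, these 3 values of r were 0.771, 0.777 and 0.710, and with group means removed they were 0.889, 0.855 and 0.755.

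SOX9 was related to VIM (r = 0.790, permutation p = 0.00096, adjusted p = 0.0048), to TIMP1 (r = 0.660, permutation p = 0.00634, adjusted p = 0.019) and to KRT19 (r = 0.588, permutation p = 0.0129, adjusted p = 0.0321). The rank correlations were 0.604, 0.464 and 0.644 (permutation p = 0.0252, 0.0979 and 0.016, adjusted p = 0.0755, 0.245 and 0.0599). Without replicate 2 of AFB1 and of AFB1_CUR the r of SOX9 with VIM was 0.424, with TIMP1 0.209 and with KRT19 0.534 (permutation p = 0.167, 0.512 and 0.0753). None of these relations of SOX9 thus had a p under 0.05 in permutation tests without those libraries. The 9 pairs that hold SPP1 or LCN2 had r between -0.377 and -0.0424, and none passed at an adjusted p under 0.05 in permutation tests. Some of these values moved with single libraries: with the 2 farthest libraries left out, SPP1 had r = 0.334 with VIM and 0.26 with SOX9 in place of -0.147 and -0.34, and without replicate 2 of both AFB1-fed groups LCN2 had r = -0.563 with SPP1 in place of -0.183. SPP1 was the highest of the 14 libraries in AFB1 replicate 2 and the lowest in AFB1_CUR replicate 2, the same libraries that were highest for VIM, TIMP1 and SOX9.

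The genes most like each marker over the 14 libraries were named by the highest Pearson r of log2(FPKM + 1), as a description. For TIMP1 they were RGS10, a regulator of G protein signalling (r = 0.962), SH3BGRL3 (0.955) and RAB34, a small GTPase (0.954). For VIM they were TNFRSF6B, a decoy receptor of Fas ligand (0.945), PHLDB3 (0.940) and TUBB, a beta-tubulin (0.939). For KRT19 they were GALNT18, a transferase that starts mucin-type O-glycans (0.939), CCDC71 (0.937) and the zinc finger protein gene PATZ1 (0.932). These 9 values of r were 0.838 to 0.954 without replicate 2 of AFB1 and of AFB1_CUR. For SOX9 they were MSH6, a DNA mismatch repair protein (0.936), AKIRIN2 (0.918) and the splicing factor RBM22 (0.912), which fell to 0.773, 0.697 and 0.767 without the same libraries. SPP1 was most like SUMF1, the enzyme that activates sulfatases (0.774), and QNG1 (0.769), and LCN2 was most like FERMT1 (0.809), the kinase gene WNK1 (0.778) and C12H1orf115 (0.757).

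The libraries at the top for VIM, TIMP1, SOX9 and LOC101113636 were also those with most leukocyte transcripts. All 10 leukocyte markers (PTPRC, CD3E, CD3D, CD79A, MS4A1, CD68, CD14, CSF1R, ITGAM and LAPTM5) had AFB1_CUR replicate 2 as their highest and AFB1 replicate 2 as their next highest of the 14 libraries. Their summed FPKM was 501.0 and 319.9 in these libraries and 43.9 to 146 in the other 12, and by group it was 43.9 to 144 in CON, 72.2 to 319.9 in AFB1 and 99.2 to 501.0 in AFB1_CUR. No leukocyte marker was at 0 in any group, and the B cell marker MS4A1 had an FPKM of 46.2 in AFB1_CUR replicate 2 and 7.57 in AFB1 replicate 2, against 0.0263 to 0.983 in the other 12. The summed FPKM of 10 fibroblast and smooth muscle markers was 1094 and 587.0 in the same libraries and 306.8 to 702.9 in the other 12. The summed level of 8 proximal tubule markers in AFB1_CUR replicate 2, 1050 FPKM, was the lowest of the 14, although their mean log2(FPKM + 1) was lower in AFB1 replicate 4 (6.68 against 6.73). In AFB1 replicate 2 the summed FPKM of 5 adipocyte markers was 66.6, against 2.19 to 10.03 in the other 13, and the sums of 6 urothelium markers (4.46) and 7 markers of papilla and thin limb (480.4) were the highest of the 14. The part of these cell types in the levels of the markers was not tested. Without both libraries the log2 difference between AFB1 and CON was -0.21 for SPP1, the difference between AFB1_CUR and CON was -0.03 for TIMP1, and the within-group spread was 0.38 for VIM, 0.39 for TIMP1 and 0.18 for SOX9.

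**Figure D4:**
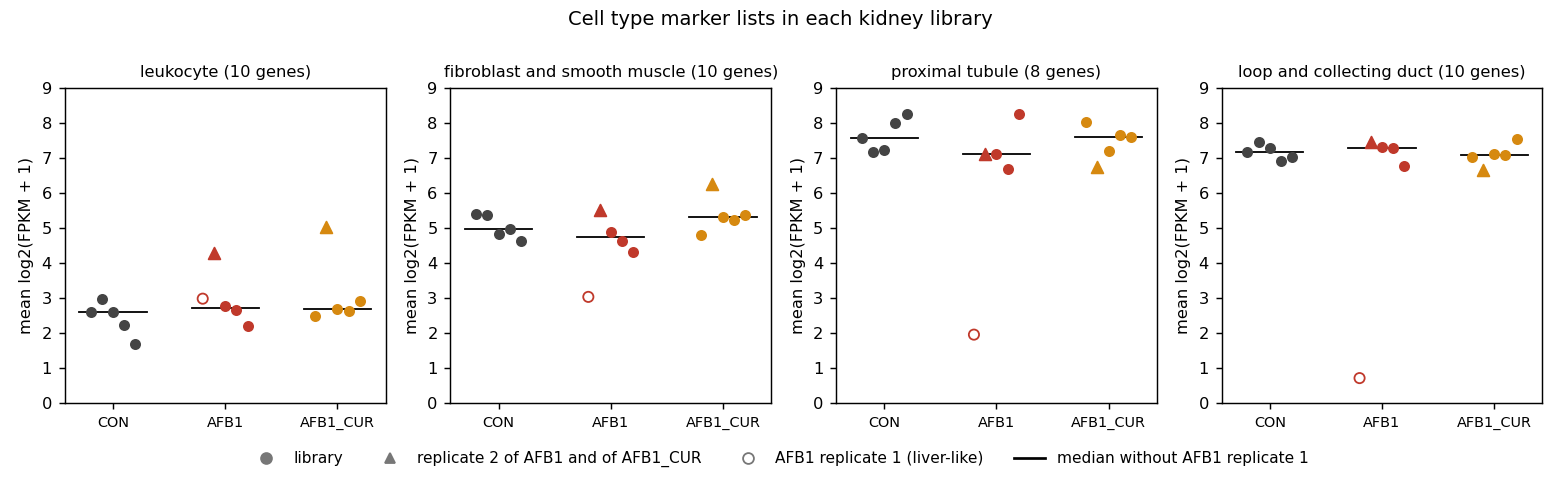
Mean log2(FPKM + 1) of markers of leukocytes, fibroblasts and smooth muscle, proximal tubule, and loop and collecting duct in each library by group, with group medians as lines and AFB1 replicate 1 as an open circle. Replicate 2 of AFB1 and of AFB1_CUR (triangles) have the highest leukocyte means of the 14 kidney libraries, 4.28 and 5.03 against 1.67 to 2.96, and AFB1 replicate 1 has the lowest tubule means.

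Of 7 related gene lists, 3 held called genes. Of 17 tested genes of dedifferentiated or failed-repair tubule, 2 were higher and 1 was lower in AFB1 than in CON, that is 3 of 17 called against 1.75% of all tested genes, as a description without a test of the list. The median log2 difference was 0.31, against 0.02 over all tested genes. ITGB6, the epithelial integrin subunit of the TGF-beta-activating integrin, had an FPKM of 1.12, 2.02, 1.02, 1.47 and 0.892 in CON replicates 1 to 5 and of 2.90, 3.81, 2.00 and 2.46 in AFB1 replicates 2 to 5. In AFB1_CUR replicates 1 to 5 it was 1.96, 2.78, 1.73, 1.87 and 1.86. Only CON replicate 2 reached the lowest AFB1 library. ITGB6 was higher in AFB1 by 1.09 on the log2 scale (SE 0.22, 95% interval 0.61 to 1.57, adjusted p = 0.511 by edgeR with Benjamini-Hochberg adjustment), and it met the call rule with each single kidney library left out, but not with AFB1 replicate 1 included (0.78), where its FPKM was 0.0119. In AFB1_CUR it differed from AFB1 by -0.52 (SE 0.22) and from CON by 0.57 (SE 0.21), both below the fold limit.

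TNFRSF12A, the receptor of the cytokine TWEAK, was higher in AFB1 by 1.19 (SE 0.54, 95% interval 0.04 to 2.34), with FPKM of 11.6, 14.6, 5.76 and 1.92 in AFB1 replicates 2 to 5 against 2.07 to 4.31 in CON. The last of these lay below the CON range, and the call was lost without AFB1 replicate 2 (1.03) or 3 (0.80) and without AFB1_CUR replicate 4 (1.19) or any single CON library (1.05 to 1.27). ATF3, a stress-induced transcription factor, was lower by 0.81 in AFB1 (log2 difference -0.81, SE 0.29) and by 0.72 in AFB1_CUR (-0.72, SE 0.27) than in CON. CON replicate 3 had an FPKM of 11.1 for ATF3 and the other 13 libraries 2.58 to 5.64, and without CON replicate 3 the differences were -0.44 and -0.35 and neither was called. DCDC2, a ciliary doublecortin protein, was higher in AFB1_CUR than in CON by 0.68 (SE 0.24), with FPKM of 1.28 to 2.67 against 0.660 to 1.34, and the call was lost without AFB1_CUR replicate 2 (0.50) or CON replicate 4 (0.58). In AFB1_CUR against AFB1, 0 of the 17 genes were called and the median was -0.13. Without AFB1_CUR replicate 2, 2 of them, ITGB6 and TNFRSF12A, were called lower in AFB1_CUR than in AFB1, and ITGB6 was also called lower without replicate 2 of both groups.

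Against 1.75% and 1.64% of all tested genes, 1 of 16 tested receptors and partners of the marker proteins was called in AFB1 and in AFB1_CUR against CON, the same gene and higher in both. It was ITGA4, the leukocyte integrin subunit that binds VCAM1 and osteopontin, with log2 differences of 0.88 (SE 0.39) and 0.83 (SE 0.37). Its FPKM was 6.46 in AFB1 replicate 2 and 6.03 in AFB1_CUR replicate 2, the libraries rich in leukocyte transcripts, and 0.908 to 2.57 in the other 12. Leaving out AFB1 replicate 2 gave a difference of 0.29 in the first comparison, leaving out AFB1_CUR replicate 2 gave 0.52 in the second, and in neither case was it called. Leaving out CON replicate 1, 4 or 5 or AFB1_CUR replicate 1 also ended both calls. Without AFB1 replicate 2, the integrin subunit gene ITGB3 was called higher in AFB1 than in CON. Medians for the list were 0.18, 0.05 and 0.25 in AFB1 against CON, AFB1_CUR against AFB1 and AFB1_CUR against CON.

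Of 7 tested adhesion molecules and chemokines of injured tubule, 0 were called between AFB1 and CON (median 0.20) or between AFB1_CUR and AFB1 (median 0.00). Against 1.64% of all tested genes, 1 of the 7 was called higher in AFB1_CUR than in CON (median 0.29). This was SELP, the P-selectin of platelets and activated endothelium, with a log2 difference of 0.86 (SE 0.37) and FPKM of 0.836 to 1.82 in AFB1_CUR against 0.360 to 1.20 in CON. Its call was lost without CON replicate 1, 4 or 5 or AFB1_CUR replicate 1, 2 or 5 (0.72 to 0.86), and without AFB1 replicate 2 SELP was also called higher in AFB1_CUR than in AFB1. Among 14 other secreted or shed injury markers, such as CST3, GDF15 and IL18, 0 were called in any comparison, and the median was 0.32, -0.08 and 0.23 in the same order of comparisons. For AFB1_CUR against CON, 1 of them was called higher without AFB1 replicate 2 (LGALS3) and 1 lower without AFB1_CUR replicate 2 (CCN2). Among 14 growth factors and cell cycle genes of repair 0 were called, with medians of 0.37, 0.00 and 0.19. The 4 tested keratins and intermediate filaments and the 5 tested SOX genes held no called gene either, and their medians for AFB1 against CON were 0.13 and 0.04.

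These medians moved with replicate 2 of the AFB1-fed groups. Without AFB1 replicate 2 the median for AFB1 against CON was 0.15 for the dedifferentiated tubule genes, 0.19 for the other secreted markers and 0.022 for the receptors and partners. It was 0.13 for the adhesion molecules and chemokines, -0.013 for the growth factors and cell cycle genes, 0.070 for the keratins and filaments and 0.037 for the SOX genes. Without AFB1_CUR replicate 2 the median for AFB1_CUR against CON was 0.058, 0.048 and 0.062 for the first 3 of these lists, 0.076 for the adhesion molecules and chemokines and -0.073 for the growth factors and cell cycle genes. The median for AFB1_CUR against AFB1 changed sign with the library left out for 5 of the 7 lists. For the other secreted markers it was 0.15 with AFB1 replicate 2 left out and -0.26 with AFB1_CUR replicate 2 left out, and in the same order for the growth factors and cell cycle genes 0.19 and -0.36, for the receptors and partners 0.17 and -0.021, for the adhesion molecules 0.10 and -0.14 and for the SOX genes 0.17 and -0.061. For the dedifferentiated tubule genes it was -0.054 and -0.18.

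**Figure D5:**
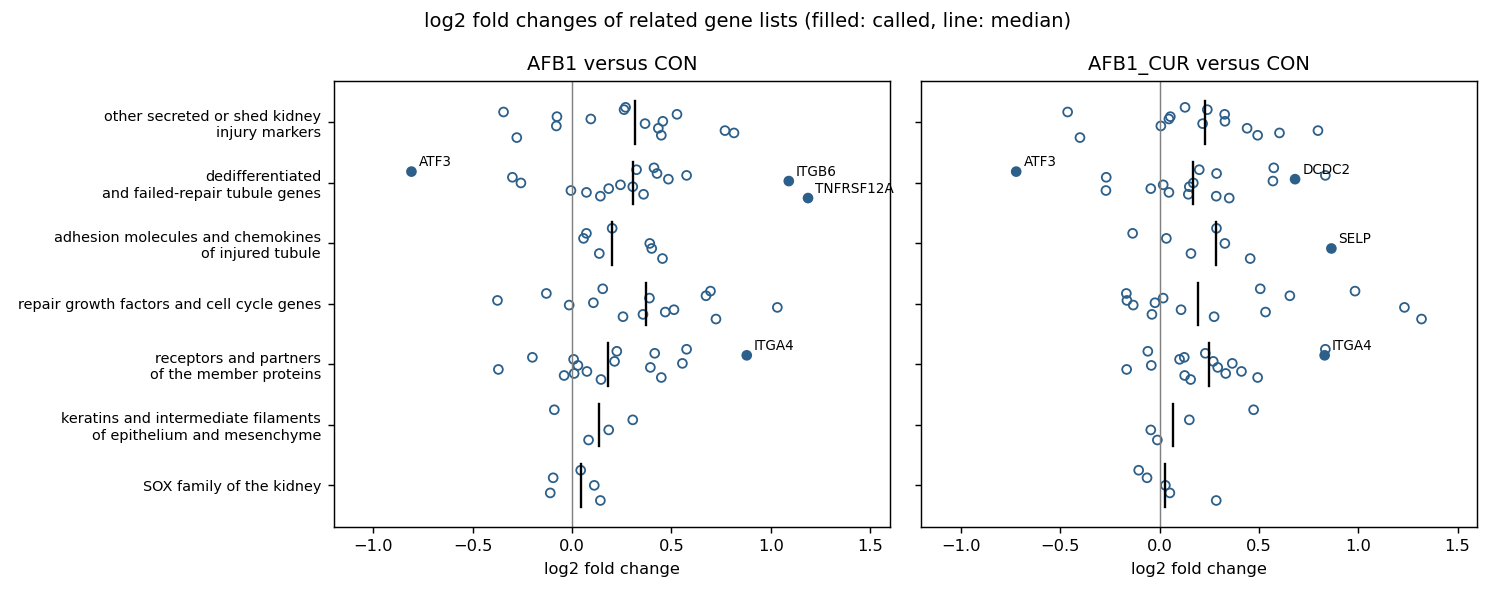
Log2 fold change (horizontal axis) of each tested gene of 7 related lists in AFB1 and in AFB1_CUR against CON, with called genes filled and named and the median of each list as a line. Against 1.75% and 1.64% of all tested genes, the called genes are ITGB6 (1.09), TNFRSF12A (1.19), ITGA4 (0.88) and ATF3 (-0.81) in AFB1, and DCDC2 (0.68), SELP (0.86), ITGA4 (0.83) and ATF3 (-0.72) in AFB1_CUR.

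Among the cell type markers, 3 genes were called. They were 1 of 8 tested leukocyte markers in AFB1_CUR against CON, where 1.64% of all tested genes were called. In AFB1_CUR against AFB1, where 0.94% were called, they were 1 of 11 hepatocyte and 1 of 10 fibroblast and smooth muscle markers. CD68, a macrophage lysosomal protein, was higher in AFB1_CUR than in CON by 1.95 on the log2 scale (SE 0.89), with an FPKM of 9.10 in AFB1_CUR replicate 2 and 0.561 to 2.24 in the other libraries of its group, and the difference was 0.73 and not called without that library. Its call was also lost without CON replicate 1, 2, 4 or 5, AFB1_CUR replicate 5 or AFB1 replicate 3 or 4 (1.70 to 2.04). ALB, the hepatocyte albumin, was lower in AFB1_CUR than in AFB1 (-3.75, SE 1.34), with FPKM of 23.9 and 11.8 in AFB1 replicates 2 and 3 and 0 to 4.48 in the other 12 kidney libraries, and the call was lost without AFB1 replicate 2 (-2.63). LUM, a collagen-binding proteoglycan of fibroblasts, was higher in AFB1_CUR than in AFB1 by 0.73 (SE 0.31), with FPKM of 47.8 to 71.2 against 24.2 to 43.2, and the call was lost without AFB1 replicate 4 or 5 or AFB1_CUR replicate 1 or 5 (0.63 to 0.71).

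The calls of cell type markers depended on replicate 2 of the AFB1-fed groups in both directions. Without AFB1 replicate 2, 6 of the 10 fibroblast and smooth muscle markers were called higher in AFB1_CUR than in AFB1 (COL1A1, COL1A2, COL3A1, DCN, LUM and PDGFRA, mostly collagens and other matrix proteins), all 10 had a difference above 0, and the median was 0.81 in place of 0.54. Of all tested genes, 271 of 13193 were called in this comparison. In that setting all 10 were lower in value in AFB1 than in CON (median -0.45), and 0 were called between AFB1_CUR and CON (median 0.33). Without replicate 2 of both groups 5 were called higher in AFB1_CUR than in AFB1, with a median of 0.66, where 223 of 13193 tested genes were called. Without AFB1_CUR replicate 2 only LUM was called in this comparison, with a median of 0.21, where 202 of 13193 were called. Of the 8 tested leukocyte markers, 5 were called higher in AFB1_CUR than in CON without AFB1 replicate 2 (PTPRC, CD3D, CD79A, CD68 and CSF1R), and 0 without AFB1_CUR replicate 2 or without replicate 2 of both groups, where the median was 0.32 and 0.33 in place of 0.91. In the same order of settings, 260, 125 and 127 of 13193 tested genes were called. In AFB1 against CON, CD3D and CD79A were called higher without AFB1_CUR replicate 2, where 302 of 13193 tested genes were called. The other single calls in these settings were CALB1 higher in AFB1 than in CON and SLC12A3 lower in AFB1_CUR than in AFB1 without AFB1 replicate 2, CD79A lower in AFB1_CUR than in AFB1 without AFB1_CUR replicate 2, and CALB1 higher and COL1A2 lower in AFB1 than in CON without replicate 2 of both groups.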

How the data were processed

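RNA from kidney pieces of 5 sheep per group was sequenced as paired reads from strand-specific (dUTP) libraries. The submitters' processing notes name cutadapt 1.9, HISAT2 2.2.1, StringTie 2.1.6, DESeq2 and edgeR; neither the counting tool nor the build is given in the sources used here. Per gene and library, the authors deposited raw read counts and FPKM values. Of 24947 genes found by symbol in the RefSeq table of assembly ARS-UI_Ramb_v3.0, 24848 (99.6%) had the start and end given in the deposited file, and coordinates are those of the file. The labels' treatment field counts upward within a group, so libraries were grouped by title.

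Counts were tested with edgeR 4.0.16 (TMM, glmQLFit and glmQLFTest, R 4.3.3), with the 3 groups in 1 model of 14 libraries and genes kept if FPKM reached 1 in 5 or more of the 15 libraries. Called genes had an unadjusted p under 0.05 and a fold above 1.5, the study's screening conditions, and Benjamini-Hochberg adjusted p values are over all genes tested. The SE is the size of the log2 difference divided by the square root of the F statistic. Correlations used 100000 permutations, two-sided (SciPy 1.17.1). Alternatives were DESeq2 1.42.0, relative log expression scaling, limma 3.58.1 on log2(FPKM + 1) and log2(FPKM + 0.1), all genes, all 15 libraries, only the groups compared, a replicate block and single libraries left out. Exact permutation tests, fits without replicate 2 of AFB1 and of AFB1_CUR, and correlations with group means removed were added after seeing the data. The edgeR script was tested on simulated data first.

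The markers, gene lists and the setting apart of AFB1 replicate 1 were chosen with earlier results of these data known. Genes named beyond the markers were those called in a list and, for each marker, the 3 tested genes with a symbol most correlated with it, of which 1 is not reported here. The loci described as VCAM1 and HAVCR1 were taken by the file's description. List genes without a row in the file were left out. Sequences were not analysed here.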

Additional observations from a re-analysis of the deposited data

Results flagged for a closer look

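Within groups, a library was set against the others of its group for each marker and for both loci described as VCAM1 (32 groups of 4 or 5 libraries), and chance alone sets about 1 in 20 groups apart in this way. SPP1 had an FPKM of 187.5 in CON replicate 2, apart from the other CON libraries at 333.3 to 382.2. SOX9 had an FPKM of 2.378 in AFB1_CUR replicate 2, apart from 0.301 to 0.771 in the rest of its group. LOC101113636, described as VCAM1, had an FPKM of 15.91 in AFB1 replicate 2, with or without AFB1 replicate 1 in the group, and of 22.13 in AFB1_CUR replicate 2. Replicate 2 of AFB1 and of AFB1_CUR are the libraries with the highest leukocyte marker levels, and the part of leukocytes in these values was not tested.

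In AFB1 replicate 1, which was left out of the groups compared except where stated and has a liver-like profile, LCN2 had an FPKM of 1.483 and a count of 1479, against counts of 145 to 202 in CON. SOX9 had a count of 256 there against 65 to 174 in CON. The locus LOC101111190, described as HAVCR1-like, had a count of 37406 against 0 to 10 in CON.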

How the results depend on the processing

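Across the alternatives, none of the 4 markers past the filter on low values was called in any comparison. Without the filter, 1 of the 6 markers was called in some fits: with AFB1 replicate 1 included it was LCN2 between AFB1 and CON (1.95) and between AFB1_CUR and AFB1, where 1778 and 1597 of 25592 genes were called, and with only the groups compared it was SOX9 between AFB1 and CON (0.74), where 888 were called. With single libraries left out, this number ranged from 0 to 1 between AFB1 and CON and between AFB1_CUR and CON, and LOC101113636 was called between AFB1 and CON (1.23) and between AFB1_CUR and AFB1 (-1.31) without AFB1_CUR replicate 2. Of the 15 correlations, 6 passed in the reported setting, 3 with AFB1 replicate 1 included and 3 without replicate 2 of both AFB1-fed groups, and single libraries left out gave 3 to 6, with 3 without AFB1_CUR replicate 2. The cause was not tested.

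Directions of small differences turned. With AFB1 replicate 1 included, AFB1 against CON was 1.95 for LCN2, -0.25 for SPP1, -0.031 for KRT19 and -0.017 for LOC101114226, and AFB1_CUR against AFB1 was 0.11 for VIM, -0.25 for SOX9, 0.083 for TIMP1, 0.21 for LOC101113636 and 0.12 for LOC101114226. Without replicate 2 of both groups, chosen after seeing the data, AFB1 against CON was 0.020 for LCN2, -0.21 for SPP1 and -0.019 for LOC101114226. In the same setting AFB1_CUR against AFB1 was 0.094 for SPP1, -0.54 for SOX9 and 0.092 for LOC101114226, and AFB1_CUR against CON was -0.034 for TIMP1 and -0.078 for LOC101113636. For AFB1_CUR against AFB1, limma with a pseudocount of 1 gave 0.023 for VIM and 0.0060 for LOC101114226, limma with 0.1 gave 0.023 for VIM, -0.13 for SOX9 and 0.015 for LOC101114226, and the difference of mean log2(CPM + 0.1) in the exact permutation test, also added later, was -0.24 for SOX9. With single libraries left out, AFB1 against CON ranged from -0.15 to 0.029 for LCN2, -0.21 to 0.27 for SPP1, -0.083 to 0.28 for KRT19 and -0.020 to 0.43 for LOC101114226. AFB1_CUR against AFB1 ranged from -0.62 to -0.11 for SPP1, -0.32 to 0.20 for VIM, -0.32 to 0.044 for KRT19, -0.66 to 0.27 for SOX9, -0.28 to 0.10 for TIMP1, -1.31 to 0.95 for LOC101113636 and -0.33 to 0.12 for LOC101114226. AFB1_CUR against CON ranged from -0.22 to 0.081 for KRT19, -0.043 to 0.30 for TIMP1, -0.085 to 1.39 for LOC101113636 and -0.028 to 0.21 for LOC101114226.

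Whether the replicate numbers pair animals is not known. Same-numbered libraries of different groups deviated together with r of -0.31 to 0.60 over 13 pairs, 7 of them over 0.1. The pairs of replicate 2 had r of 0.40 (CON with AFB1), 0.44 (CON with AFB1_CUR) and 0.60 (AFB1 with AFB1_CUR). Replicate 5 of CON and of AFB1 had 0.38. Of 14 libraries, 4 were most like a library of their own number. A shared origin of same-numbered libraries was not tested. With the replicate block, 0 markers were called, VIM differed by 0.024 between AFB1_CUR and AFB1, and 229, 151 and 283 genes were called in place of 231, 124 and 216. The same 3 counts were 867, 707 and 928 without the filter, 639, 525 and 131 with AFB1 replicate 1, and 105, 81 and 80 with limma at a pseudocount of 1. Single libraries left out gave 205 to 459, 121 to 271 and 125 to 312; the extremes were 459 without AFB1 replicate 5, 271 without AFB1 replicate 2 and 125 without AFB1_CUR replicate 2. Without replicate 2 of both groups the counts were 268, 223 and 127. The low counts of SOX9 and the HAVCR1-described loci, and 4 or 5 libraries per group, limit what could be detected.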
